A study of Mus musculus with 15 samples.

Results

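The D-type cyclins and the kinases they activate were followed through mouse embryonic stem (ES) cells and the embryoid bodies made from them, with and without a hairpin against Cbx7. The members were the 5 genes Ccnd1, Ccnd2, Ccnd3, Cdk4 and Cdk6, taken as the array probes whose gene name equals one of these symbols. There were 8 such probes among 39429 non-control probes, namely 1 each for Ccnd1, Ccnd2 and Cdk6, 2 for Ccnd3 and 3 for Cdk4. All 8 passed the filter on dim probes, as did 27248 of the 39429, but the Cdk6 probe passed only through its values in hairpin EB9. The genes were chosen by measured values of these arrays as well as by family, since the rise of Ccnd2 between control and hairpin ES cells was part of the choice. Differences between hairpin and control ES cells are therefore given for the members as a description with no test, and so are differences of Ccnd2 that involve ES arrays.

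The study compared 4 groups on 15 one-colour Agilent arrays. ES cells with the hairpin against Cbx7, which the labels call KD33, gave 4 arrays. Untreated ES cells gave 3, for which the series' design text names a control hairpin, shCtr. Embryoid bodies, spheres in which ES cells differentiate, carry the name EB9 in the labels, with 4 hairpin arrays and 4 control arrays. Cbx7 is a chromodomain subunit of Polycomb repressive complex 1, which represses genes at chromatin marked by methylated histone H3. The knockdown groups rest on 1 hairpin, and no label gives the age of the embryoid bodies. The arrays are labelled as biological replicates with no word on which cultures they share. RNA (500 ng per sample) was copied from its poly(A) end before labelling.

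Cyclins D1, D2 and D3 are made when growth signals reach a cell in G1, and each binds and activates Cdk4 or Cdk6. The active pair phosphorylates the retinoblastoma protein Rb and its relatives, which frees E2F transcription factors to switch on genes for DNA replication. Inhibitors of the Ink4 family (Cdkn2a to Cdkn2d) bind Cdk4 and Cdk6 directly, whereas the Cip/Kip proteins (Cdkn1a, Cdkn1b and Cdkn1c) bind cyclin-kinase pairs. Mouse ES cells are known for a short G1 with little cyclin D and much cyclin E activity, and G1 lengthens as they differentiate.

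The Ccnd2 value rests on a single probe, A_52_P53906, a 60-base stretch of the coding sequence at chr6:127098696-127098755 (mm9, minus strand). Of the Cdk4 probes, A_55_P2166639 lies in the coding sequence at chr10:126503162-126503221 (plus strand), and the other two lie further 3′ at chr10:126504174-126504233 and chr10:126504279-126504338. Both coding probes are shown because the values of Ccnd2 depend on 1 sequence alone and because this Cdk4 probe is the one that reads a different region of its transcript.
Ccnd2 A_52_P53906: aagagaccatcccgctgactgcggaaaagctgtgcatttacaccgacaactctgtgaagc
Cdk4 A_55_P2166639: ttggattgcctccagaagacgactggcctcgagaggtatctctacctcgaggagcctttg
The remaining probes are A_66_P111562 for Ccnd1 at chr7:152116202-152116261 (minus strand), A_51_P238448 and A_55_P2041075 for Ccnd3 at chr17:47736267-47736326 and chr17:47736579-47736638 (plus strand), and A_55_P2079630 for Cdk6 at chr5:3522106-3522165 (plus strand).

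Levels are log2 signals relative to the same array's 75th percentile over non-control features, so a level of 0 is that percentile and each step of 1 is a doubling. That percentile ranged from 1483.2 to 2531.1 signal units, between 62.5% and 75.4% of features lay well above background, and no feature was saturated. Arrays lay on 4 slides, and arrays of different groups on a slide deviated together from their group means (21 pairs, median correlation across genes 0.41, from 0.21 to 0.6), so differences within a slide are given beside the main ones. Each group occupied 1 position throughout, and effects of position and of group cannot be told apart. The targeted gene was read by 2 probes that differ. Cbx7 probe A_55_P1980401 read -7.85, -4.44, -4.61 and -7.37 in hairpin ES cells and -6.3, -3.14 and -3.04 in the controls, overlapping ranges with a difference of -1.91 (SE 1.23, limma adjusted p = 0.256), and -0.27 in EB9 (SE 1.14, adjusted p = 0.92). Its levels differed widely between slides, and within slides 1, 2 and 3 the hairpin ES array was lower by 1.56, 1.3 and 1.57. In EB9 the difference within slides 1 to 4 was -0.31, -0.36, -0.52 and 0.12, with neither array well above background on slides 1 and 4. Its second probe differed by -0.13 in ES cells and -0.16 in EB9 (adjusted p = 0.733 and 0.708), with within-slide values of 0.11, -0.15 and -0.15 in ES cells and of -0.36, -0.3, -0.23 and 0.26 in EB9. ES arrays carried the markers of their label, since 10 of 10 pluripotency genes lay well above background on every ES array and 10 of 10 were lower in control EB9 (median log2 difference -4.64). Over all kept probes 41.2% were lower in control EB9. Of 9 fibroblast or feeder genes, 5, among them Col3a1, Lum, Dcn and Postn, were not well above background on any ES array. The other 4 were well above background on every ES array.

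Ccnd2, the cyclin D2 gene, was the member that moved most. Its log2 level was -3.2, -3.28 and -3.36 in the 3 control ES arrays and -0.53, -0.45, -0.49 and -0.53 in the 4 hairpin ES arrays. In EB9 it was 2.08, 1.93, 1.82 and 1.96 in the controls and 1.59, 1.72, 1.47 and 1.7 with the hairpin. The 4 groups therefore form an order without overlap between neighbours, from control ES cells through hairpin ES cells and hairpin EB9 to control EB9. Groups did not overlap for 74.4% of all kept probes between hairpin EB9 and hairpin ES cells, the middle pair. On the linear scale the group means stood at 10.3%, 70.7%, 307% and 386% of the 75th percentile.

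**Figure D1:**
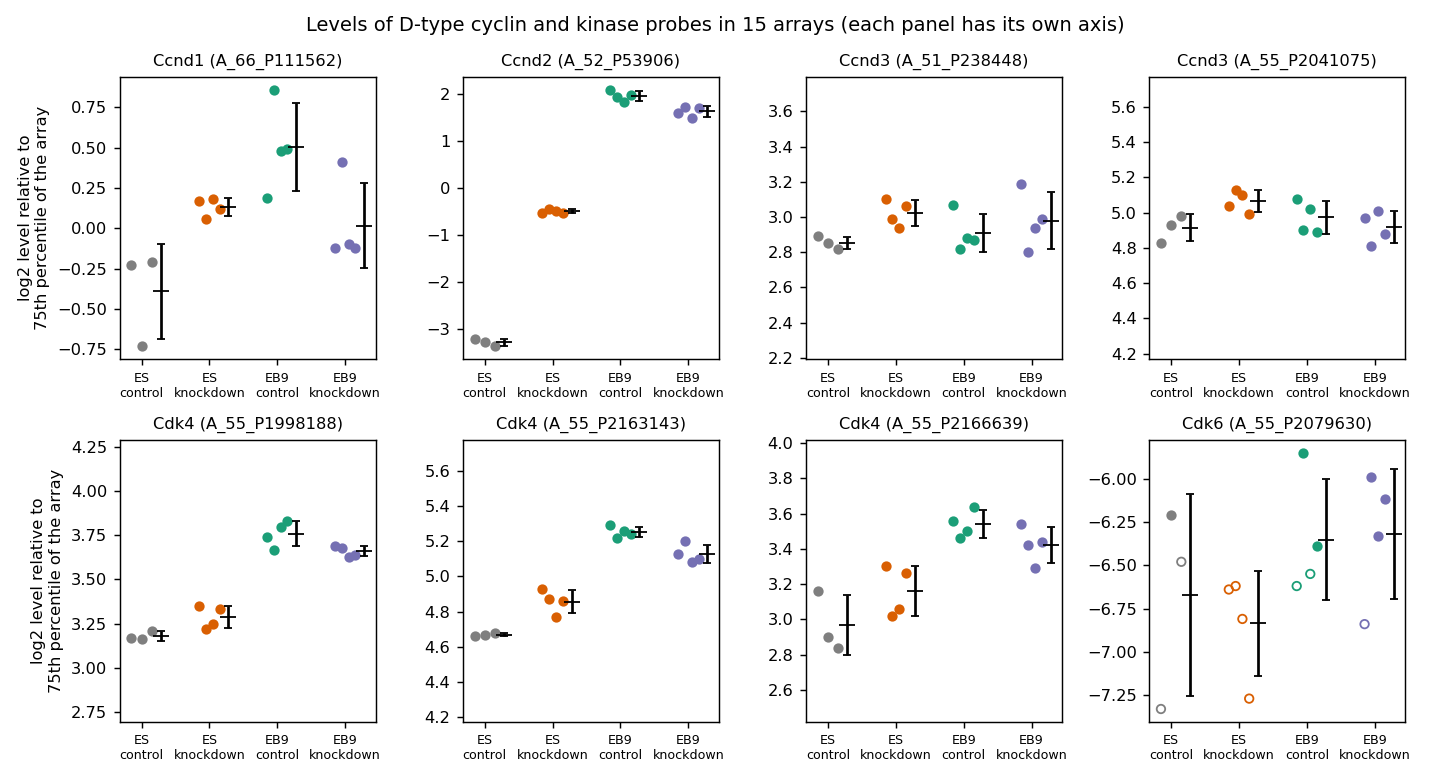
Log2 level of each of the 8 probes relative to the 75th percentile of its array, by group, with 1 point per array, open where the spot was not well above background, and the mean with its SD beside the points. Each panel has its own vertical axis. Ccnd2 separates all 4 groups, Cdk4 is higher in EB9 than in ES cells, and most Cdk6 spots in ES cells are open. On both Ccnd3 probes, groups next to each other in the order of their means overlap.

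In hairpin ES cells Ccnd2 was higher by 2.78 on the log2 scale (SE 0.07), from -3.28 ± 0.08 (SD, n = 3) to -0.5 ± 0.04 (SD, n = 4), or 6.86-fold. It was the sixth largest rise of all kept probes, and it is the value for which the gene was chosen. Over all kept probes in this comparison 38.1% passed an adjusted p of 0.05 (21.9% higher and 16.2% lower) and 5.63% differed at least 2-fold. Within slides 1, 2 and 3 the difference was 2.67, 2.83 and 2.87, and slide 4 held no ES control. With an offset added in background correction and quantile normalisation, as in the authors' values, it was 2.42. In bulk RNA of this kind, more cells with the transcript and more of it per cell cannot be told apart.

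Embryoid bodies had far more Ccnd2 than ES cells in both arms. The difference between EB9 and ES cells was 5.23 in the controls (SE 0.07, 37.4-fold) and 2.12 with the hairpin (4.34-fold). Within slides the controls differed by 5.28, 5.21 and 5.18 and the hairpin groups by 2.11, 2.17, 1.96 and 2.23. Within each arm the slides thus gave nearly the same values.

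In EB9 the hairpin groups lay on the other side of their controls. Ccnd2 fell by 0.33 on the log2 scale (SE 0.07, 1.26-fold, limma adjusted p = 0.00833 over all kept probes), from 1.95 ± 0.11 (SD, n = 4) to 1.62 ± 0.12 (SD, n = 4). The ranges did not overlap, and the value was below 0 on each of the 4 slides (-0.5, -0.21, -0.35 and -0.26). When arrays were scaled by their medians the difference was -0.37 with adjusted p = 0.0882, so the call depends on the scaling. The change in EB9 minus that in ES cells was -3.11 (SE 0.1), given without a test.

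Ccnd2 was the 1 probe of 8 that passed an adjusted p of 0.05 for the hairpin in EB9, where 14.1% of all kept probes passed (7.65% higher and 6.49% lower). That share of the members is close to the background. Groups did not overlap for 2 of the 8 probes, Ccnd2 and Cdk4 A_55_P2163143, against 15.2% of all kept probes. In ES cells, the contrast used to choose the genes, groups did not overlap for 6 of 8 probes, against 49.3% of all kept probes.

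**Figure D2:**
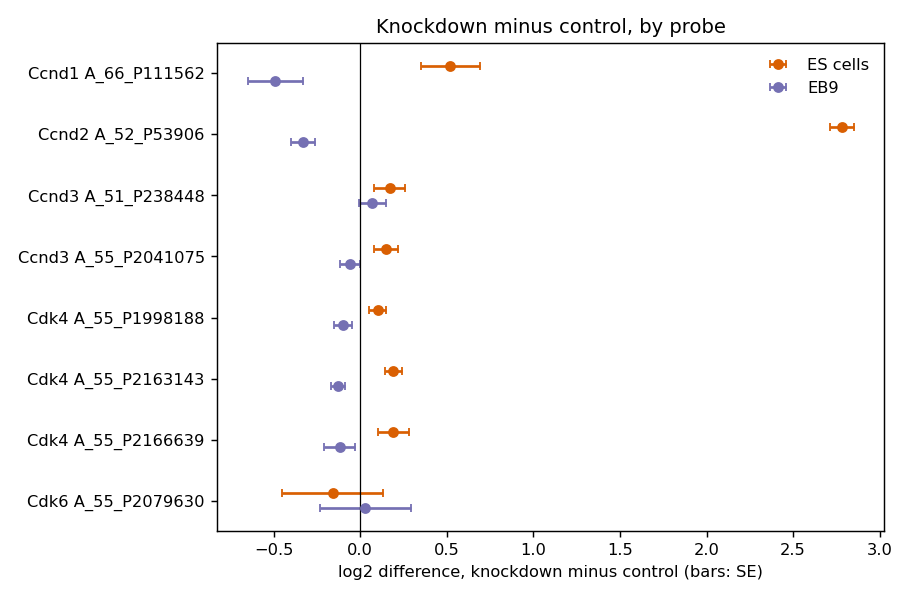
Log2 difference between hairpin and control arrays for each probe, in ES cells and in EB9, with the standard error of the fit as bars. Ccnd2 in ES cells stands at 2.78, and the other values lie between -0.49 and 0.52.

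Ccnd1, the cyclin D1 gene, read -0.23, -0.73 and -0.21 in control ES cells and 0.17, 0.06, 0.18 and 0.12 in hairpin ES cells. The hairpin arrays all lay above the controls, 1 of which (replicate 3) was well below the other two. The difference was 0.52 (SE 0.17), and within slides it was 0.4, 0.79 and 0.39.

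In EB9 Ccnd1 read 0.19, 0.86, 0.48 and 0.49 in the controls and -0.12, 0.41, -0.1 and -0.12 with the hairpin. The second replicate was the highest of each EB9 group, and the ranges overlapped. The difference of -0.49 (SE 0.16) missed the threshold, with a limma adjusted p of 0.0598, though on each slide the hairpin array was the lower one (-0.32, -0.45, -0.59 and -0.61). It was 0.0649 with slide as a fixed block and 0.0371 with the replicate number, which in EB9 is the slide, as a block. Leaving out single arrays gave adjusted p from 0.0121 (difference -0.62, without hairpin EB9 replicate 2) to 0.156 (without hairpin EB9 replicate 4), with 0.0284 without control EB9 replicate 1, 0.0456 without control ES replicate 3 and 0.141 without control EB9 replicate 2 (difference -0.37).

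Ccnd1 rose with differentiation in the controls by 0.9 (SE 0.17, 1 of 4 probes that rose among the 7 outside Ccnd2, limma adjusted p = 0.000344), from -0.39 ± 0.29 (SD, n = 3) to 0.51 ± 0.27 (SD, n = 4). Within slides the rise varied, at 0.42, 1.59 and 0.7. In the hairpin arm the difference was -0.12 (SE 0.16, adjusted p = 0.524). Ordered by mean, Ccnd1 went from control ES cells (-0.39) to hairpin EB9 (0.02), hairpin ES cells (0.13) and control EB9 (0.51), and the middle pair overlapped.

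**Figure D3:**
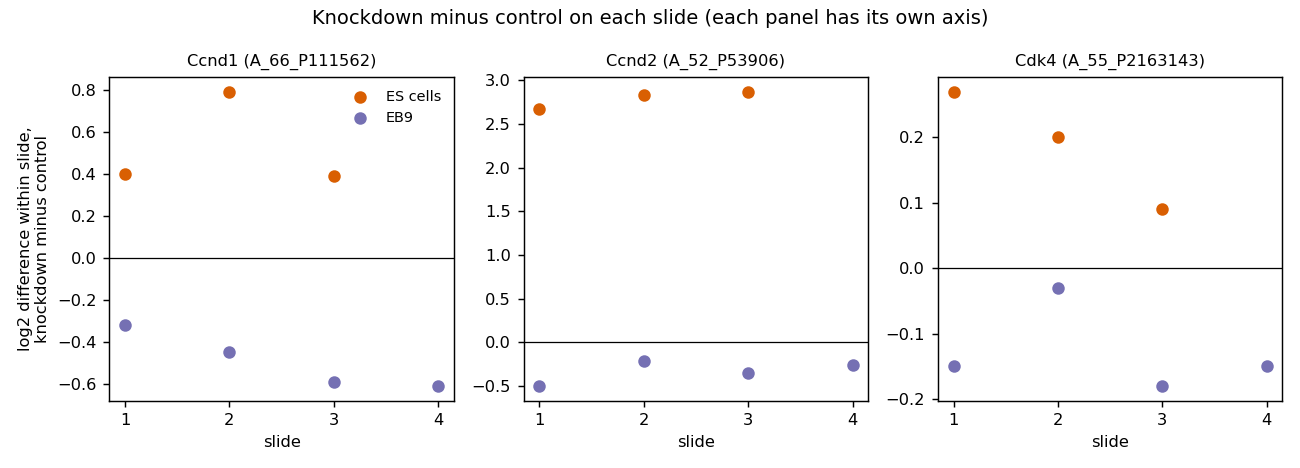
Log2 difference between the hairpin and the control array on each slide for Ccnd1, Ccnd2 and the brightest Cdk4 probe, in ES cells (slides 1 to 3) and in EB9 (slides 1 to 4). Each panel has its own vertical axis. For these 3 probes every slide gave a positive difference in ES cells and a negative one in EB9, the smallest being -0.03 for Cdk4 on slide 2.

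Ccnd3, the cyclin D3 gene, stayed nearly level across the groups on both of its probes. A_51_P238448 had means of 2.85 ± 0.04 (SD, n = 3) in control ES cells, 3.02 ± 0.07 (SD, n = 4) in hairpin ES cells, 2.91 ± 0.11 (SD, n = 4) in control EB9 and 2.98 ± 0.16 (SD, n = 4) in hairpin EB9. A_55_P2041075 had means of 4.91 ± 0.08, 5.06 ± 0.06, 4.97 ± 0.09 and 4.92 ± 0.09 in the same order of groups. Ordered by mean, neighbouring groups overlapped in every case on both probes. Hairpin and control ES cells, not neighbours in that order, did not overlap on either probe.

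The 2 Ccnd3 probes differed by 0.17 (SE 0.09) and 0.15 (SE 0.07) between hairpin and control ES cells, but with quantile normalisation after an offset in background correction the second was -0.02. In EB9 the hairpin differences were 0.07 (SE 0.08, limma adjusted p = 0.631) and -0.06 (SE 0.06, adjusted p = 0.644). Control EB9 and control ES cells differed by 0.05 (SE 0.09, adjusted p = 0.589) and 0.06 (SE 0.07, adjusted p = 0.464). With the hairpin, EB9 minus ES was -0.04 (SE 0.08, adjusted p = 0.641) and -0.15 (SE 0.06, adjusted p = 0.0502, or 0.0282 with slide and 0.0403 with replicate number as a block), and both changed sign under quantile normalisation, to 0.11.

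Cdk4, the kinase partner of the D-type cyclins in most tissues, was higher in EB9 than in ES cells on all 3 probes. The brightest, A_55_P2163143, read 4.66, 4.67 and 4.68 in control ES cells and 4.93, 4.87, 4.77 and 4.86 in hairpin ES cells. In EB9 it read 5.29, 5.22, 5.26 and 5.24 in the controls and 5.13, 5.2, 5.08 and 5.1 with the hairpin. As with Ccnd2, neighbouring groups did not overlap on this probe, and the order from control ES cells to control EB9 was the same. The order of the means was the same on the other Cdk4 probes, but on A_55_P1998188 the EB9 groups overlapped, and on A_55_P2166639 all 3 neighbouring pairs did.

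The rise of Cdk4 from control ES cells to control EB9 was 0.58 on each probe, with limma adjusted p of 9.51e-08 for A_55_P2163143 (SE 0.05), 2.6e-07 for A_55_P1998188 and 8.52e-05 for the coding probe A_55_P2166639 (SE 0.09). In the hairpin arm it was 0.27 (SE 0.04, adjusted p = 8.9e-05), 0.37 (adjusted p = 8.7e-06) and 0.26 (SE 0.09, adjusted p = 0.014) on the same probes. The last of these calls was lost when arrays were scaled by their medians, at a difference of 0.35.

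Stage comparisons called most probes, 74.9% in the controls (33.8% higher and 41.2% lower) and 78.2% in the hairpin arm (34.2% higher and 43.9% lower). Of the 7 probes outside Ccnd2, 4 rose in the controls (Ccnd1 and the 3 of Cdk4) and 3 in the hairpin arm (Cdk4). The median difference over all kept probes was -0.13 in the control arm, against 0.03 after scaling by medians.

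The hairpin's differences in Cdk4 were small in both settings. In ES cells they were 0.19, 0.1 and 0.19 on A_55_P2163143, A_55_P1998188 and A_55_P2166639, and the first was 0.04 with quantile normalisation. In EB9 they were -0.13 (SE 0.04, limma adjusted p = 0.0809), -0.1 (SE 0.05, adjusted p = 0.211) and -0.12 (SE 0.09, adjusted p = 0.424). None of the 3 passed, although the first had groups that did not overlap and passed with slide as a fixed block (adjusted p = 0.0424) or without hairpin EB9 replicate 2 (0.0372).

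Cdk6, the second partner kinase, was read at the limit of detection. Its probe lay well above background on 1 of 3 control ES arrays, 0 of 4 hairpin ES arrays, 2 of 4 control EB9 arrays and 3 of 4 hairpin EB9 arrays. Levels ran from -7.33 to -6.21 in control ES cells, from -7.27 to -6.62 in hairpin ES cells, from -6.62 to -5.85 in control EB9 and from -6.84 to -5.99 in hairpin EB9, so all groups overlapped. The hairpin difference in EB9 was 0.03 (SE 0.26), and control EB9 exceeded control ES cells by 0.32 (SE 0.29, limma adjusted p = 0.329). Hairpin EB9 and hairpin ES cells had means of -6.32 and -6.84. Since hairpin EB9 is the group through which the probe passed the filter, no result is drawn from differences that involve it.

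The genes that act on or after the D-type cyclins were counted from 6 pathway lists, each gene by its brightest kept probe. Among the 7 inhibitors of cyclin-dependent kinases, 2 rose and 3 fell in hairpin ES cells (median -0.2, against 0.05 for all kept probes, of which 21.9% rose and 16.2% fell). In EB9 3 rose and 1 fell (median 0.23, against -0.01 for all kept probes, of which 7.65% rose and 6.49% fell). Cdkn2a, whose locus encodes p16Ink4a and p19Arf and is a known Polycomb target, rose in both, by 0.49 in ES cells (SE 0.12, limma adjusted p = 0.00496) and 0.73 in EB9 (SE 0.11, adjusted p = 0.00107). Its neighbour Cdkn2b, which encodes p15Ink4b, fell by 0.45 in ES cells (SE 0.13, adjusted p = 0.0178) and rose by 0.97 in EB9 (SE 0.12, adjusted p = 0.000459). Cdkn1c, which encodes p57Kip2, rose by 0.86 in ES cells (SE 0.14, adjusted p = 0.000434) and fell by 0.62 in EB9 (SE 0.13, adjusted p = 0.00938), as Ccnd2 was higher in the first and lower in the second. Cdkn1a, which encodes p21, fell by 0.58 in ES cells (SE 0.11, adjusted p = 0.00142) and differed by 0.3 in EB9 (adjusted p = 0.0731). Cdkn2d fell by 0.29 in ES cells (SE 0.05) and Cdkn1b rose by 0.23 in EB9 (SE 0.07).

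In control EB9 against control ES cells, 5 of the 7 inhibitors fell and 2 rose (median -0.78, against -0.13 for all kept probes). Of those kept probes 41.2% fell and 33.8% rose. Cdkn1a fell by 2.58 (SE 0.11) and Cdkn2a by 1.76 (SE 0.12), whereas Cdkn1c rose by 2.74 (SE 0.14) and Cdkn1b, which encodes p27Kip1, by 1.52 (SE 0.08).

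Of the 13 genes of the Rb family, E2F and DP, 3 rose and 1 fell in hairpin ES cells (median 0.1), and 1 rose in EB9 (median -0.03). Of all kept probes 38.1% passed in ES cells and 14.1% in EB9, so the share of this list is no larger than the background in either. E2f3 rose by 0.65 in ES cells (SE 0.06, limma adjusted p = 3.31e-06) and E2f2 by 0.35 (SE 0.11, adjusted p = 0.0221). E2f7, a repressive E2F, fell by 0.26 (SE 0.07, adjusted p = 0.00956). Rb1, the main substrate of Cdk4, was the gene that rose in EB9, by 0.55 (SE 0.11, adjusted p = 0.00621), and differed by 0.15 in ES cells (adjusted p = 0.36). The ES count was 2 without control ES replicate 3, 2 without control ES replicate 4 and 2 with scaling by medians. The EB9 count was 4 without hairpin EB9 replicate 2 and 4 with slide as a block. E2f3 rose by 2.61 from control ES cells to control EB9 (SE 0.06). In that comparison 4 genes of the list rose and 5 fell, against 33.8% and 41.2% of all kept probes.

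E2F targets of DNA replication moved mostly upward in hairpin ES cells, where 11 of 18 rose and 0 fell by limma's adjusted p (median 0.26; at an unadjusted p under 0.05, 11 higher and 1 lower). At an adjusted p of 0.05, 21.9% of all kept probes rose in that comparison. Pola1, the catalytic subunit of DNA polymerase alpha, rose by 0.64 (SE 0.1, limma adjusted p = 0.000373). The count was 5 with the authors' values, 6 (5 higher and 1 lower) with quantile normalisation alone, 7 with scaling by medians and 7 without control ES replicate 3.

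In EB9 0 of the 18 rose and 4 fell (median -0.12): Rrm2 by 0.28 (SE 0.08, limma adjusted p = 0.0321), Mcm2 by 0.27 (SE 0.08, adjusted p = 0.0419), Mcm7 by 0.2 (SE 0.06, adjusted p = 0.0386) and Tk1 by 0.19 (SE 0.05, adjusted p = 0.0319). Rrm2 is a subunit of ribonucleotide reductase, Mcm2 and Mcm7 belong to the replicative helicase, and Tk1 is thymidine kinase. These calls sit near the threshold, where 6.49% of all kept probes fell, and at an unadjusted p under 0.05 limma gave 0 higher and 8 lower. The count was 1 with the authors' values, 0 with scaling by medians, 0 with no filter on dim probes and 0 without control EB9 replicate 3 or 4 or without hairpin EB9 replicate 1, 3 or 4. It was 1 without control EB9 replicate 2, 2 without control ES replicate 3 or hairpin ES replicate 4, and 7 without hairpin EB9 replicate 2. The hairpin's effect differed between EB9 and ES cells for 11 of the 18 (interaction term, lower in EB9 for each, against 28.9% of all kept probes called in either direction and 16.5% called lower), or for 3 with the authors' values. From control ES cells to control EB9 13 fell and 3 rose (median -0.49), with Orc1, of the origin recognition complex, down by 1.6 (SE 0.09). Among all kept probes 41.2% fell and 33.8% rose between these stages (median -0.13).

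**Figure D4:**
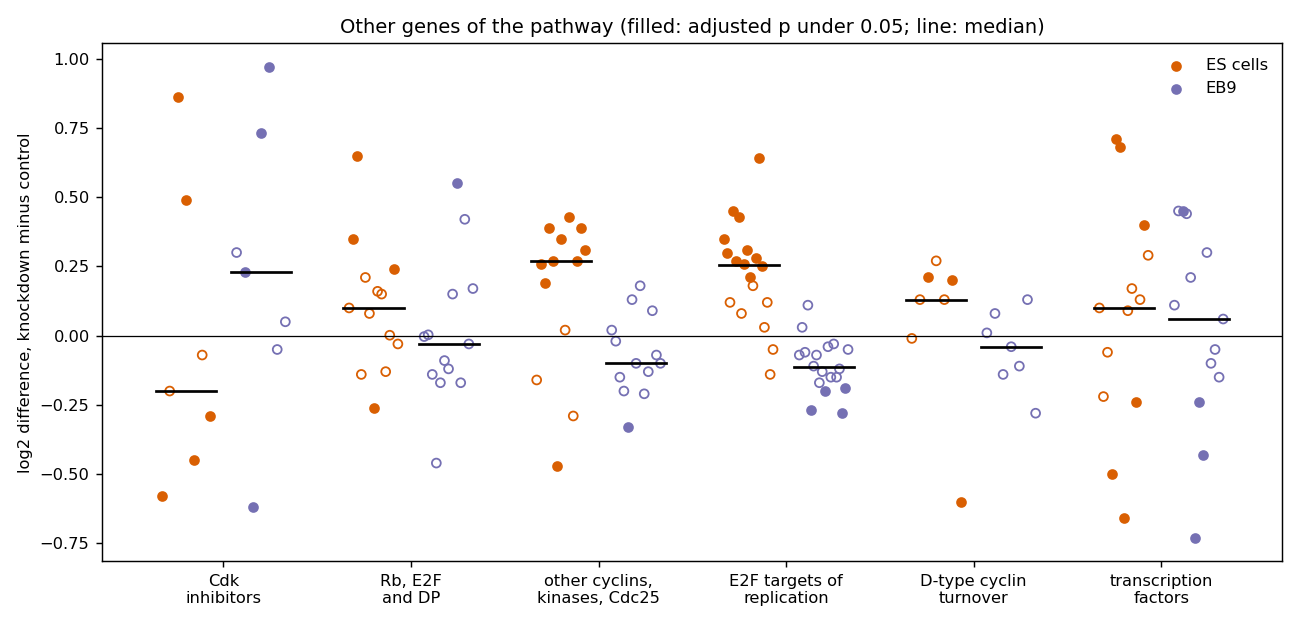
Log2 difference between hairpin and control arrays for the measured genes of 6 pathway lists, in ES cells and in EB9, with filled points for adjusted p under 0.05 and a line at each list's median. E2F targets of replication lie mostly above 0 in ES cells (median 0.26) and mostly below it in EB9 (median -0.12), while Cdk inhibitors spread to both sides in both.

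Among the other cell cycle cyclins, kinases and Cdc25 phosphatases, 13 of 14 genes were measured (Ccne2 had no kept probe). In hairpin ES cells 9 rose and 1 fell (median 0.27), against 21.9% and 16.2% of all kept probes, including Cdc25c by 0.43 (SE 0.08) and Ccnb2, a mitotic cyclin, by 0.39 (SE 0.07), with Ccnh, the cyclin of the Cdk-activating kinase, down by 0.47 (SE 0.08). The count of 10 was 6 with the authors' values and with scaling by medians, and 7 without control ES replicate 3. In EB9 0 rose and 1 fell (14.1% of all kept probes passed), Ccne1, the cyclin E1 gene, by 0.33 (SE 0.08, limma adjusted p = 0.0207; at an unadjusted p under 0.05, 0 higher and 5 lower). That count was 0 without control EB9 replicate 2 or 4 or hairpin EB9 replicate 3 or 4, 3 without hairpin EB9 replicate 2 and 3 with replicate number or 4 with slide as a block. In control EB9 against control ES cells Ccne1 was lower by 2.02 (SE 0.09) and Ccna1 by 2.67 (SE 0.12), while Ccnd2 was higher by 5.23. In this list 6 fell and 1 rose there, against 41.2% and 33.8% of all kept probes. The share called, 74.9% over all kept probes, was smaller in the list.

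Of 7 genes for the turnover of D-type cyclins, 2 rose and 1 fell in hairpin ES cells, against 38.1% of all kept probes called. From control ES cells to control EB9 5 rose and 2 fell, against 33.8% and 41.2% of all kept probes. In hairpin EB9 0 passed limma's adjusted p, with 1 higher and 2 lower at an unadjusted p under 0.05. Skp2, a substrate-binding F-box protein, fell by 0.6 in ES cells (SE 0.1, limma adjusted p = 0.000492). Gsk3b, a kinase that marks cyclin D1 for export and degradation, rose by 0.2 (SE 0.06) and Fbxo31 by 0.21 (SE 0.07). Both of these calls were lost, leaving 0 higher and 1 lower, with the authors' values, with scaling by medians, without control ES replicate 3 and without hairpin ES replicate 4. The EB9 count of 0 was 1 (lower) with slide as a block or without control EB9 replicate 1, and 2 (lower) without hairpin EB9 replicate 2.

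Transcription factors known to act on D-type cyclin genes went both ways. In hairpin ES cells 3 of 13 rose and 3 fell (median 0.1, with 38.1% of all kept probes called), and in EB9 1 rose and 3 fell (median 0.06, with 14.1% called), or 0 and 2 with scaling by medians. Lef1, a nuclear partner of beta-catenin, rose by 0.68 in ES cells (SE 0.17, limma adjusted p = 0.00759) and fell by 0.73 in EB9 (SE 0.16, adjusted p = 0.0106). Myc fell in both, by 0.66 in ES cells (SE 0.07, adjusted p = 2.08e-05) and by 0.24 in EB9 (SE 0.07, adjusted p = 0.0333). Jun rose by 0.71 in ES cells (SE 0.1), where Foxo3 fell by 0.5 (SE 0.16). In EB9 Mycn fell by 0.43 (SE 0.08) and Foxo1 rose by 0.45 (SE 0.06). From control ES cells to control EB9 7 rose and 2 fell, with Jun up by 4.24 (SE 0.1), Lef1 by 3.31 (SE 0.17) and Myc by 2.96 (SE 0.07). Over all kept probes 33.8% rose and 41.2% fell in that stage comparison.

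Myc and its partners bind the E-box CACGTG, which reads the same on both strands. The window of 250 bases before the Cdk4 start site, chr10:127063285-127063534 (GRCm38, plus strand, RefSeq), holds 4 copies, shown in capitals because Cdk4, the member with the most probes, rose with stage on each of them.
Cdk4 upstream window: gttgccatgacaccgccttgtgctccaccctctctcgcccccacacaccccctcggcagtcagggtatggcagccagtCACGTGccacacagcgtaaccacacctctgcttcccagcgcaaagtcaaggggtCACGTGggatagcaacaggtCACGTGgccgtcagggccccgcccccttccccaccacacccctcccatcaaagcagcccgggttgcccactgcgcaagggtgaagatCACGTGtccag
Of 32851 such windows, 6.02% held at least 1 copy and 7 (0.0213%) held at least 4. The window of Cdk6 held 1 copy, and those of 2 Ccnd3 start sites held 0. A match describes these letters only. Windows were matched for 3 of the 5 members, and Ccnd1 and Ccnd2 had none. Binding of Myc to this window, and any part of it in the rise of Cdk4, was not tested.

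Some markers of cell state also differed between hairpin and control arrays. For hairpin ES cells the shares over all kept probes were 21.9% higher and 16.2% lower. In hairpin ES cells 1 of 10 pluripotency genes rose and 2 fell, with Klf4 down by 0.57 (SE 0.1) and Pou5f1, which encodes Oct4, up by 0.38 (SE 0.12), and the log2 of their summed level was 8.61 to 8.65 in controls and 8.49 to 8.75 with the hairpin. Of 7 neuroectoderm genes 4 rose and 1 fell, led by Zic1 at 1.68 (SE 0.22) and Pax6 at 1.2 (SE 0.28). Their summed level was nonetheless lower with the hairpin, at 1.49 to 1.75 in controls and 1.42 to 1.48. Of 6 trophoblast genes 3 rose and 1 fell, with summed levels of 2.79 to 2.9 and 3.01 to 3.09. Of 8 endoderm genes 1 rose and 3 fell, of 6 mesoderm genes 1 rose and 2 fell, and of 6 heart muscle genes 1 rose and 0 fell. Of 9 fibroblast or feeder genes 0 rose and 1 fell, Col1a1, with summed levels of 1.91 to 2 and 2.03 to 2.13.

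In hairpin EB9, where Ccnd2 fell, 4 of 10 pluripotency genes rose and 0 fell, Klf2 by 0.71 (SE 0.09) and Tdgf1 by 0.45 (SE 0.11) the most. Their summed level was 4.39 to 4.69 in controls and 4.74 to 4.93 with the hairpin. Of 6 measured mesoderm genes 0 rose and 4 fell, T (Brachyury) by 2.79 (SE 0.36) and Mesp1 by 1.67 (SE 0.22) the most, with summed levels of 3.37 to 3.53 and 3.01 to 3.31. Neither pair of ranges overlapped. Over all kept probes 7.65% rose and 6.49% fell in hairpin EB9. Of 8 endoderm genes 0 rose and 2 fell there, and of 7 neuroectoderm genes 1 rose and 0 fell. Of 6 trophoblast genes 1 rose and 1 fell, and of 6 heart muscle genes 0 passed. Of 9 fibroblast genes 0 rose and 2 fell, Thy1 by 0.56 (SE 0.09) and Fap, which was not well above background on any hairpin EB9 array, and summed levels were 6.58 to 7.15 in controls and 6.67 to 7.31 with the hairpin. From control ES cells to control EB9, where Ccnd2, Ccnd1 and Cdk4 were higher, 8 of 9 fibroblast genes and 8 of 8 endoderm genes rose. The share over all kept probes that rose there was 33.8%. The log2 of the fibroblast genes' summed level went from 1.91 to 2 in control ES cells to 6.58 to 7.15 in control EB9, and that of the endoderm genes, 3 of which were not well above background on any ES array, from -0.21 to -0.2 to 4.55 to 4.79. The part of these cell types in the results above was not tested.

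Of 8 genes with a kept probe within 300 kb of the Ccnd2 probe, 1 passed the test in hairpin ES cells, Dyrk4 at 272.5 kb, which fell by 2.06 (SE 0.43, limma adjusted p = 0.00204). Tigar, which encodes a fructose bisphosphatase and lies 63.5 kb downstream, differed by 0.04 in ES cells (adjusted p = 0.824) and fell by 0.43 in EB9 (SE 0.1, adjusted p = 0.0113), the only pass among the 8 there. Over all kept probes 38.1% passed in ES cells and 14.1% in EB9, so neither count is larger than the background share.

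Beside Ccnd1 lies a cluster of fibroblast growth factor genes, and 1 of them changed in opposite directions in ES cells and EB9. Fgf15, 29.8 kb downstream of the Ccnd1 probe, rose by 1.15 in hairpin ES cells (SE 0.18, limma adjusted p = 0.00033) and fell by 1.07 in hairpin EB9 (SE 0.17, adjusted p = 0.00173). Fgf3, at 88.6 kb, differed by -0.14 in ES cells (adjusted p = 0.595) and fell by 1.34 in EB9 (SE 0.16, adjusted p = 0.000366). LTO1, at 9.4 kb, fell by 0.46 in ES cells (SE 0.06, adjusted p = 7.82e-05). The neighbours of Ccnd1 not named in this paragraph passed in neither setting. Of all kept probes 38.1% passed in ES cells and 14.1% in EB9. Fgf4, a pluripotency gene at 65.1 kb, differed by 0.09 and 0.11 (adjusted p = 0.575 and 0.509), and was lower by 5.96 in control EB9 than in control ES cells.

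**Figure D5:**
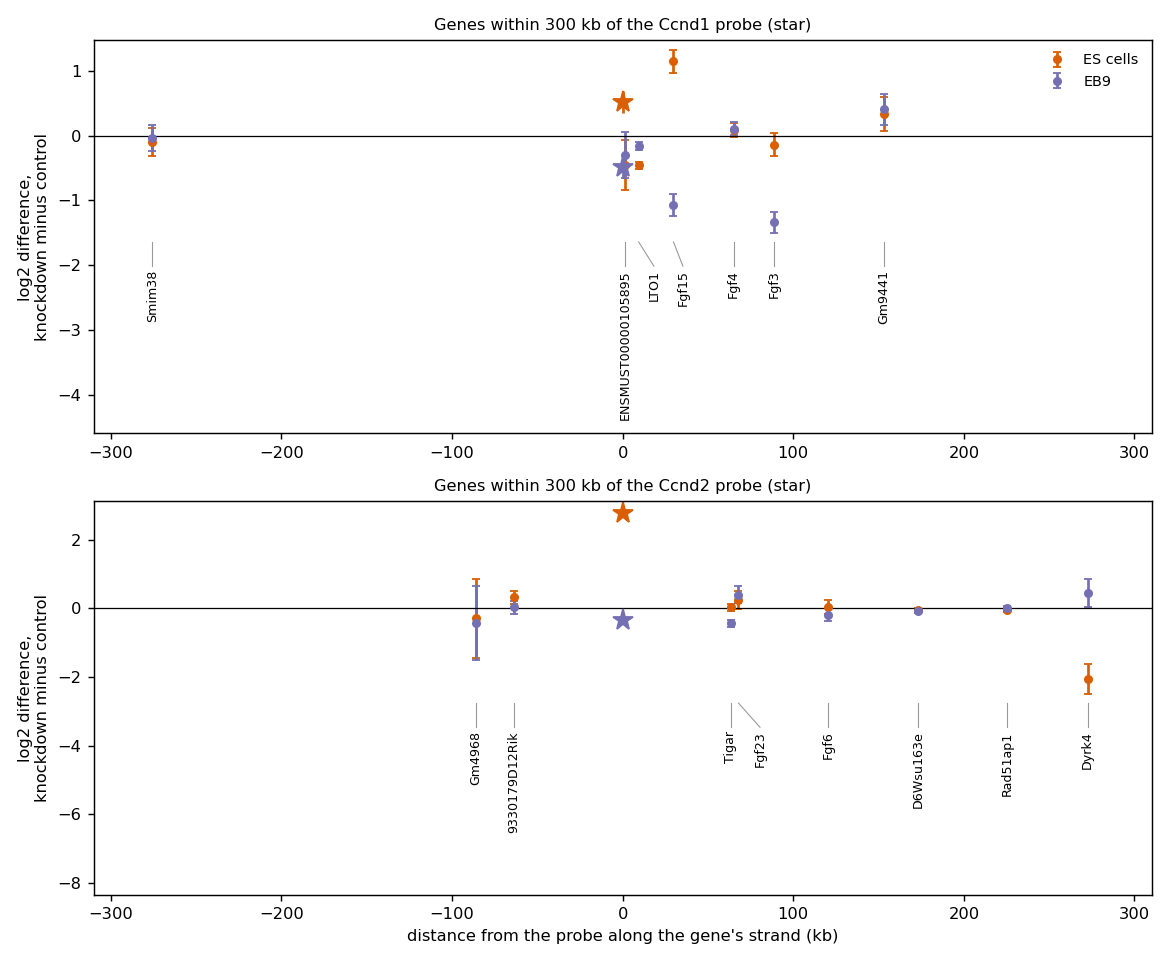
Log2 difference between hairpin and control arrays for genes with a kept probe within 300 kb of the Ccnd1 or Ccnd2 probe, against the distance in kb along the gene's strand, with the standard error as bars and stars for Ccnd1 and Ccnd2. Ccnd2 at 2.78 in ES cells stands above its 8 neighbours, and Fgf15 beside Ccnd1 lies at 1.15 in ES cells and -1.07 in EB9.

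Near Cdk4, Tspan31, whose probe lies 0.2 kb away at the 3′ end of Cdk4, differed by 0.12 in ES cells (limma adjusted p = 0.077) and 0.0014 in EB9 (adjusted p = 0.991). It rose by 0.15 in control EB9, against 0.58 for the Cdk4 probes. Further neighbours of Cdk4 passed in hairpin ES cells in both directions. Among them Kif5a fell by 0.85 (SE 0.07) and B4galnt1 by 0.79 (SE 0.08), and Ddit3 rose by 0.54 (SE 0.1) and Dctn2 by 0.46 (SE 0.08). In hairpin EB9 Gli1 fell by 0.48 (SE 0.11) and Ddit3 rose by 0.57 (SE 0.09), among others. Bysl, 2 kb from the Ccnd3 probe, fell by 0.43 in EB9 (SE 0.08, adjusted p = 0.00412) and differed by 0.05 in ES cells (adjusted p = 0.721), while Ccnd3 itself differed by 0.07 and -0.06 in EB9 on its 2 probes. Also near Ccnd3, Foxp4 fell by 0.66 in hairpin ES cells (SE 0.06) and Mrps10 rose by 0.28 (SE 0.05). Within 300 kb of Cdk6, Ankib1 fell by 0.55 in hairpin ES cells (SE 0.07) and Gatad1 rose by 0.29 (SE 0.05). Passes among neighbours stand against 38.1% of all kept probes in ES cells and 14.1% in EB9.

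Over the 15 arrays, the genes whose levels followed Ccnd2 most closely by Pearson correlation among 21184 genes were Brcc3 (0.996), Psme2 (0.995), an unnamed probe (0.995), Hdx (0.993) and Plpp7 (0.993). Plpp7 went from -4.27 in control ES cells to -2.72 in hairpin ES cells and -1.59 and -1.64 in hairpin and control EB9. Ccnd1 was followed most closely by Crabp2 (0.932), which encodes a retinoic acid carrier. Crabp2 had group means of 1.43 in control ES cells, 2.4 in hairpin ES cells, 1.84 in hairpin EB9 and 2.93 in control EB9, the extremes of which are the same groups as for Ccnd1. For Ccnd3 the closest were Blvrb (0.839) and Marchf2 (0.833), and for Cdk6 Ggta1 (0.909) and Gm3049 (0.85). For Cdk4 they were a pair of transcripts named only by array identifiers (0.989 and 0.987). These arrays share slides and groups, and the correlations were not split between them. Cdk6 was read at the limit of detection with all groups overlapping, so its correlations describe no difference between groups.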

How the data were processed

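Total RNA of 15 samples was labelled with Cy3 and hybridised to Agilent one-colour arrays. Per the file headers, the authors extracted the scans in Agilent Feature Extraction 10.7.3.1. The deposited processed signal is an intensity, background-corrected within each array. The authors' deposited value table holds log2 values, which equalled normexp correction (offset 50) and quantile normalisation of the same arrays within 0.000154. For arrays, their number limits the precision.

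Here the processed intensity was log2-transformed and each array's 75th percentile over 43020 non-control features subtracted. Between 109 and 179 flagged features per array were left out and repeated spots averaged. A probe was kept if well above background on at least 3 arrays of a group. Group means were fitted to all 15 arrays with limma 3.58.1 (R 4.3.3; 11 residual degrees of freedom), with Benjamini-Hochberg adjustment over the 27248 kept probes and a threshold of 0.05. In the hairpin ES and both EB9 groups the replicate number is the slide, per the file headers, and same-numbered EB9 arrays deviated together (4 pairs, correlations from 0.28 to 0.55), so these numbers pair the EB9 samples by slide; those of the ES controls do not. The script was tested on simulated data. Probes took current symbols from RefSeq accessions or symbols where these matched (26424 by accession, 3983 by symbol, 826 by older symbol) and otherwise kept the file's name (8196).

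The text names all member probes; from each pathway or marker list, up to 2 genes per direction and comparison that passed, with the largest difference; the 5 genes most like Ccnd2 and 2 for each other member; and genes within 300 kb of a member. A few genes that this rule selects are not reported here. Further list genes are named for their role or to complete a count, and were chosen after their values were seen, as were the neighbours shown out of all within the window. Members, lists and rules were chosen with earlier results of these data known. Alternatives were other scalings, background corrections, filters, blocks for slide or replicate number, and leaving out each array.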

Additional observations from a re-analysis of the deposited data

Results flagged for a closer look

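For Ccnd1 in hairpin EB9 the array of replicate 2 stood at 0.41, while the other 3 lay at -0.12, -0.1 and -0.12. Its gap took 0.959 of the group's range, above Dixon's critical value for 4 samples. It was 1 of 24 probe groups of 4 arrays examined, and chance flags about 5% of such groups. The control EB9 array on the same slide was also the highest of its group, at 0.86.

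For 2 probes every hairpin array lay on one side of the controls in ES cells and on the other in EB9. Ccnd2 differed by 2.78 in ES cells and -0.33 in EB9. Cdk4 A_55_P2163143 differed by 0.19 in ES cells and -0.13 in EB9. Its ES difference was 0.04 with the authors' values and with quantile normalisation, so the pattern depends on the scaling. On Cdk4 A_55_P1998188 and A_55_P2166639 the EB9 groups overlapped. The difference between the 2 settings was not tested for either, because the ES contrast was used to choose the genes.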

How the results depend on the processing

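Ccnd2 in hairpin ES cells was 2.42 with normexp correction and quantile normalisation and with the authors' values, and between 2.74 and 2.82 when single arrays were left out. Its fall in EB9 was -0.37 (adjusted p = 0.0882) with median scaling and between -0.37 and -0.28 without single arrays (adjusted p from 0.00467 to 0.0283). Ccnd1 in EB9 was -0.49 with the stricter filter (adjusted p = 0.0466) and between -0.62 and -0.37 without single arrays (adjusted p from 0.0121 to 0.156). Cdk4 A_55_P2163143 in EB9 was -0.13 with a slide block (adjusted p = 0.0424) and between -0.15 and -0.11 without single arrays (adjusted p from 0.0372 to 0.201). Cdk6 in EB9 was -0.01 with median scaling and between -0.08 and 0.21 without single arrays. Ccnd3 A_51_P238448 changed sign for hairpin EB9 against hairpin ES cells, at 0.08 with normexp and with the authors' values, 0.04 with median scaling and 0.11 with quantile normalisation, and between -0.11 and 0.02 without single arrays. Its change in EB9 minus that in ES cells was 0.03 with normexp and the authors' values and 0.04 with quantile normalisation, and its control stage difference lay between -0.00086 and 0.08 without single arrays. Ccnd3 A_55_P2041075 was -0.02 in ES cells with normexp and the authors' values, and 0.11 for the hairpin stage difference with these and with quantile normalisation. Cdk4 A_55_P1998188 in ES cells was -0.0033 with quantile normalisation. Cdk4 A_55_P2163143 in ES cells was 0.04 with normexp, with the authors' values and with quantile normalisation. Cdk6 in the control stage comparison lay between -0.01 and 0.55 without single arrays. The causes were not tested.

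Of all kept probes, 1580 were called for the hairpin in EB9 with median scaling and 6939 with a slide block (3831 shared with the 3852 of the main setting), and 4900 for the interaction with median scaling. Leaving out single arrays gave 2096 (without hairpin EB9 replicate 4) to 5448 (without hairpin EB9 replicate 2) in EB9, also 2179 without hairpin EB9 replicate 3, 2413 without control EB9 replicate 4 and 2531 without control EB9 replicate 3. It gave 8197 to 10928 in ES cells, 19423 to 20525 and 20712 to 21500 for the stage comparisons and 6527 to 8435 for the interaction.

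The numbers of the ES controls did not pair them with other groups (3 pairs with hairpin ES cells, correlations from -0.56 to 0.33, none on a shared slide), so the replicate block sets them against arrays of other slides. With the replicate number as a block, Ccnd1 in EB9 was -0.49 with adjusted p = 0.0371, Ccnd2 in EB9 was -0.33 with adjusted p = 0.0108, and 4490 probes were called in EB9. Signal over background limits Cdk6.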
